A study of Rattus norvegicus with 12 samples.

Results

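Actb, Gusb, B2m and Hprt1 are 4 genes often used as internal references when the expression of other genes is measured. They were taken by name from the mRNA probes of a rat circular RNA (circRNA) array, where each is represented by 1 probe printed as 10 spots. They are 4 of the 38 genes that could be named on the array, which holds 14227 non-control probes, 14145 of them for circRNAs. Kidney RNA from 12 male rats had been hybridised, 1 rat per array and 3 rats per strain. The first strain was the Dahl salt-sensitive rat (S), a model in which dietary salt raises blood pressure, and its salt-resistant counterpart was the Dahl R rat. The other strains were the spontaneously hypertensive rat (SHR), which develops high blood pressure without added salt, and the normotensive Wistar Kyoto rat (WKY). Rats of all 4 strains ate a diet with 0.3% NaCl from weaning at 28 to 30 days and were killed at 57 days of age. The labels name no other diet or treatment. The labels count the replicates as separate rats.

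A reference gene is useful only if its RNA is measured at a steady level while other RNAs change. Before labelling, the total RNA had been digested with RNase R, an exonuclease that degrades linear RNA from its free end and largely spares closed circles, and the remainder was copied by random priming with the dye Cy3. A linear mRNA such as those of these genes is therefore read here from what was left after digestion. Its amount in the tissue and the share of it that survived cannot be told apart, nor can fewer cells of a type and less RNA per cell. Which stretch of each transcript the probes bind is not given in the sources used here.

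Each level is a log2 signal from which the array's 75th percentile over its circRNA probes was subtracted, so that 1 unit is a doubling and the sign only says on which side of that percentile a probe lies. The percentile itself was 6.22 (log2 signal) on the array of S rat 1 and between 7.02 and 8.15 on the other 11. The file headers give 2 scan dates, and the arrays that share a scan date are called a slide here. Whether each set was physically 1 slide was not checked. All S rats, all R rats and WKY rats 1 and 2 were on slide 1, while the SHR rats and WKY rat 3 were on slide 2. S and SHR were thus never on the same slide. SHR rat 2 stood apart from the other SHR and WKY arrays in the mRNA probes, with a median over the named mRNA probes of -2.07, inside the -2.19 to -1.93 of the S and R arrays and below the -1.35 to -0.38 of the other SHR and WKY arrays. The differences, spreads and ratios of the 4 genes are also given without this rat. Of 11 markers of the kidney's proximal tubule only Cyp2e1 had a named probe, which was above background on all 12 arrays. The thick limb, distal tubule, collecting duct, podocyte, endothelial and blood markers sought had none.

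Actb encodes beta-actin, a protein of the cytoskeleton. Its level in rats 1, 2 and 3 was 1.47, 2.08 and 2.36 in S, 2.20, 2.18 and 1.70 in R, 3.09, 2.00 and 2.67 in SHR, and 3.08, 3.03 and 2.99 in WKY. The 3 WKY arrays were nearly equal and lay above all R arrays, whereas SHR rat 2 lay among the S and R arrays. The strain means were 1.97 ± 0.45 for S, 2.03 ± 0.28 for R, 2.59 ± 0.55 for SHR rats and 3.04 ± 0.05 for WKY rats (SD, n = 3 each).

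Gusb encodes the lysosomal enzyme beta-glucuronidase. Its level in rats 1, 2 and 3 was -2.02, -3.01 and -1.82 in S, -2.38, -2.11 and -2.14 in R, -0.89, -2.24 and -0.46 in SHR, and -1.85, -0.08 and -2.31 in WKY. The highest 3 arrays were WKY rat 2, SHR rat 3 and SHR rat 1, and the other SHR and WKY arrays lay within the range of S and R. The means were -2.28 ± 0.63 for S, -2.21 ± 0.15 for R, -1.19 ± 0.93 for SHR rats and -1.41 ± 1.18 for WKY rats.

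B2m encodes beta-2-microglobulin, the light chain of the class I histocompatibility molecules that present peptides to T cells. Its level in rats 1, 2 and 3 was 1.82, 2.69 and 2.58 in S, 2.74, 2.60 and 2.46 in R, 5.23, 2.37 and 4.96 in SHR, and 4.37, 5.55 and 5.24 in WKY. All S and R arrays were below 5 of the 6 SHR and WKY arrays, and SHR rat 2 lay among the S and R arrays. The means were 2.36 ± 0.47 for S, 2.60 ± 0.14 for R, 4.19 ± 1.58 for SHR rats and 5.05 ± 0.61 for WKY rats.

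Hprt1 encodes hypoxanthine phosphoribosyltransferase, which returns purine bases to the nucleotide pool. Its level in rats 1, 2 and 3 was -4.98, -4.15 and -4.66 in S, -3.58, -4.51 and -3.63 in R, -0.74, -4.09 and -1.35 in SHR, and -2.21, -0.39 and -1.06 in WKY. As for B2m, all S and R arrays were below 5 of the 6 SHR and WKY arrays, with SHR rat 2 among the S and R arrays. The means were -4.60 ± 0.42 for S, -3.91 ± 0.52 for R, -2.06 ± 1.79 for SHR rats and -1.22 ± 0.92 for WKY rats. Its signal was dim. In S, 0 of the 10 spots of rat 1 and 1 of the 10 spots of rat 3 were well above background, so that only 1 of the 3 S arrays measured it by the rule that more than 50% of spots must pass. The median spot intensity on those S arrays was 1.93 and 6.58 units, and the other 10 arrays ranged from 10.6 to 111 units. The other 3 genes were above background on all 12 arrays, and no spot of the 4 probes was saturated.

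**Figure D1:**
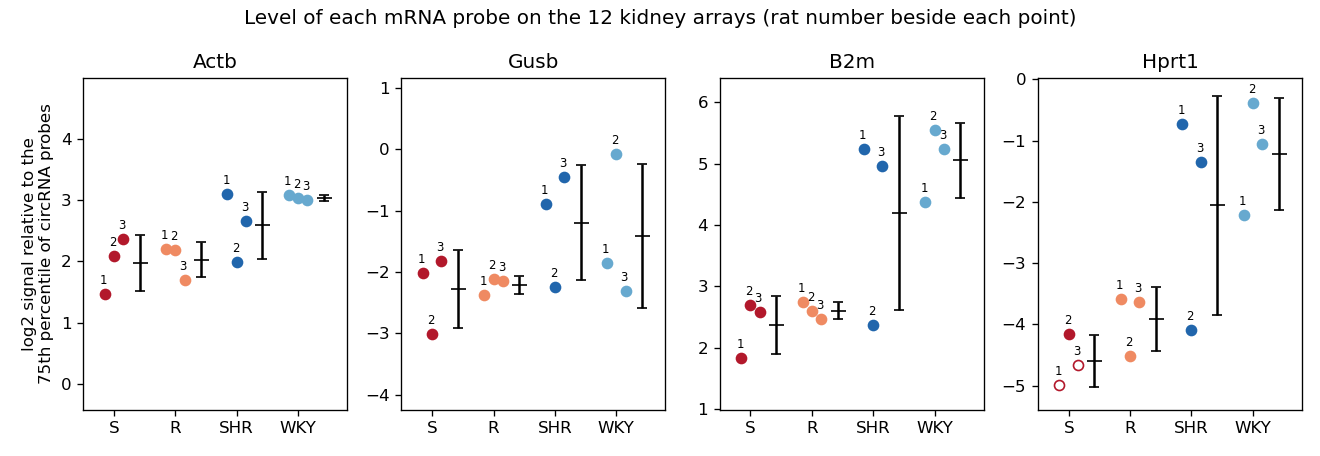
Level of each probe (y axis, log2 signal minus the array's 75th percentile over circRNA probes) by strain, 1 point per rat with its number and, to the right, the strain mean and SD (n = 3). All panels span the same height; open points are arrays where the probe was not above background. In B2m and Hprt1, SHR rat 2 lies with the S and R arrays and the other 5 SHR and WKY arrays lie above them.

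Neither of the hypertensive strains differed detectably from its normotensive counterpart in any of the 4 genes. In S vs R the log2 fold change was -0.06 for Actb (95% interval -0.97 to 0.85), -0.07 for Gusb (-1.45 to 1.31), -0.24 for B2m (-1.70 to 1.22) and -0.69 for Hprt1 (-2.38 to 1.00). In SHR vs WKY it was -0.45 for Actb (-1.36 to 0.46), 0.22 for Gusb (-1.17 to 1.60), -0.86 for B2m (-2.33 to 0.60) and -0.84 for Hprt1 (-2.53 to 0.85). The intervals, from a limma fit of the 35 named mRNA probes above background, still hold changes of more than 1 log2 unit for Gusb, B2m and Hprt1 in both comparisons and for Actb in SHR vs WKY. None of the 4 genes passed the Benjamini-Hochberg threshold in either comparison. The share of all 35 probes called was 0.0% in both, with 2 probes at an unadjusted p under 0.05 in S vs R and 0 in SHR vs WKY, and none was called in the unmoderated test (array weights called 3 probes in S vs R, none of them from these 4 genes). The groups overlapped for all 4 genes, while 14.3% of the 35 probes did not overlap in S vs R and 2.86% did not in SHR vs WKY. Without SHR rat 2 the SHR vs WKY values were -0.15 for Actb, 0.74 for Gusb, 0.04 for B2m and 0.18 for Hprt1. Within slide 2, where all SHR rats can be set only against WKY rat 3, they were -0.41 for Actb, 1.11 for Gusb, -1.05 for B2m and -0.999 for Hprt1. With SEs of 1.00 to 1.56 and 1 WKY array, which is assumed to vary like the SHR arrays, this fit could show only very large changes. All S and R rats shared slide 1. Whether the S minus R and SHR minus WKY differences themselves differed was tested as an interaction, which called 0 of the 35 probes (0.0%, with 1 at an unadjusted p under 0.05) and none of the 4 genes. The share of all 35 probes called was 57.1% in the test for any difference among the strains, which called B2m (limma, Benjamini-Hochberg adjusted p = 0.0177) and Hprt1 (adjusted p = 0.0130) but not Actb (0.110) or Gusb (0.314). The call of B2m was lost without S rat 1, WKY rat 2 or WKY rat 3, that of Hprt1 without S rat 1, and both with the slide as a block. Normexp lost that of Hprt1 (limma, adjusted p = 0.137).

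Across the pairs of strains, Hprt1 and B2m fell in S relative to SHR and in R relative to WKY. In S vs SHR, Hprt1 fell by 2.54 (SE 0.776, limma, Benjamini-Hochberg adjusted p = 0.0270) and B2m fell by 1.83 (SE 0.672, adjusted p = 0.0444). Only 1 of the 3 S arrays measured Hprt1 above background, so its size rests in part on signal at background. Actb was -0.62 (adjusted p = 0.203) and Gusb -1.09 (adjusted p = 0.161) in the same comparison. The 2 of 4 genes called stood beside 42.9% of all 35 probes, 40.0% as lower, so that the share is near the background. The S and SHR arrays did not overlap for Hprt1 alone among the 4, against 31.4% of the 35 probes. With normexp, another background correction, the S vs SHR value of Hprt1 was -0.56 (limma, adjusted p = 0.445) and that of B2m -1.80 (adjusted p = 0.0827). Without SHR rat 2 all 4 genes were called, with -0.91 for Actb, -1.61 for Gusb, -2.73 for B2m and -3.56 for Hprt1. In that fit 27 of all 35 probes were called, so the calls are not particular to the 4 genes. The call of Hprt1 was lost without S rat 1, S rat 3, SHR rat 1 or SHR rat 3. That of B2m was lost without any 1 rat other than WKY rat 1 or SHR rat 2 (limma, adjusted p up to 0.219). S and SHR shared no slide, so that no value within a slide exists. With the slide as a block, which links them only through WKY, neither gene was called (limma, adjusted p = 0.562 for both).

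In R vs WKY, Hprt1 fell by 2.69 (SE 0.776) and B2m fell by 2.45 (SE 0.672), both with a limma Benjamini-Hochberg adjusted p of 0.0225. Actb was -1.01 (adjusted p = 0.0556) and Gusb -0.80 (adjusted p = 0.289). Again 2 of 4 genes were called, beside 45.7% of all 35 probes, 42.9% as lower. The R and WKY arrays did not overlap for Actb, B2m and Hprt1, and neither did they for 74.3% of the 35 probes. With normexp the value of Hprt1 was -1.22 (limma, adjusted p = 0.0443), and with quantile normalization that of Actb was -1.54 (adjusted p = 0.0284). Within slide 1, which holds all R rats and WKY rats 1 and 2, the values were -1.03 for Actb, -1.25 for Gusb, -2.36 for B2m and -2.61 for Hprt1, and only the last 2 were called (limma, adjusted p = 0.00524 for both). The share of all 35 probes called within slide 1 is not given. The slide as a block gave the same 4 sizes and no call (adjusted p between 0.0847 and 0.156). Both calls were also lost without either of R rats 1 and 2 or without either of WKY rats 2 and 3 (limma, adjusted p between 0.0550 and 0.0986). Actb was called without SHR rat 2 (limma, adjusted p = 0.0192).

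Taking both Dahl strains together, S and R vs SHR and WKY, 3 of the 4 genes were lower. Hprt1 averaged -4.25 over S and R and -1.64 over SHR and WKY, a fall by 2.61 (SE 0.549, limma, Benjamini-Hochberg adjusted p = 0.00222), with 2 of the 6 S and R arrays at background. B2m averaged 2.48 over S and R and 4.62 over SHR and WKY and fell by 2.14 (SE 0.475, adjusted p = 0.00305). Actb averaged 2.00 over S and R and 2.81 over SHR and WKY and fell by 0.81 (SE 0.297, adjusted p = 0.0252). Gusb averaged -2.25 over S and R and -1.30 over SHR and WKY, a log2 fold change of -0.95 (SE 0.450) that missed the threshold (adjusted p = 0.0738). Of all 35 probes 71.4% were called here, 62.9% as lower, so that 3 of 4 is near the background share. None of the 4 genes separated the groups without overlap, which 8.57% of the 35 probes did.

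**Figure D2:**
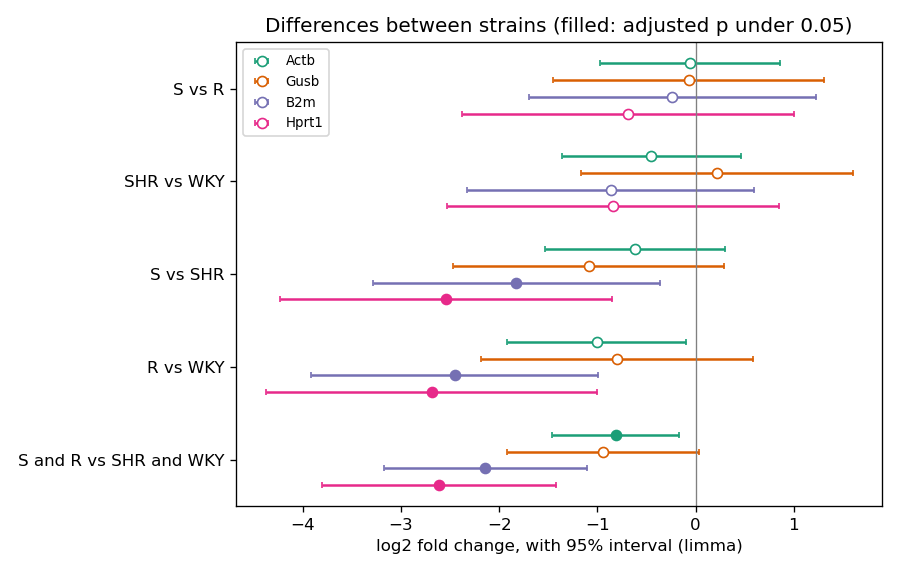
Log2 fold change (x axis) of each gene in 5 comparisons (y axis), with its 95% interval from limma; filled points have a Benjamini-Hochberg adjusted p under 0.05. The 8 points of the comparisons within each strain pair (S vs R, SHR vs WKY) are open, and the filled points of B2m and Hprt1 lie between -2.69 and -1.83.

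In the comparison of the Dahl strains with SHR and WKY, no call held with the slide as a block, single rats decided the calls of Actb and Gusb, and the size for Hprt1 and Gusb changed with the background correction. With the slide as a block, the values were -0.85 for Actb (limma, adjusted p = 0.222), -1.84 for Gusb (adjusted p = 0.182), -1.96 for B2m (adjusted p = 0.182) and -2.45 for Hprt1 (adjusted p = 0.182), and 0 of the 35 probes were called. Within slide 1, where S and R can be set only against WKY rats 1 and 2, all 4 genes were called, with -1.06 for Actb, -1.28 for Gusb, -2.48 for B2m and -2.95 for Hprt1. Slide 2 holds no S or R rat. Without SHR rat 2 all 4 were called as well, with -0.96 for Actb, -1.21 for Gusb, -2.59 for B2m and -3.12 for Hprt1. Leaving out 1 rat at a time never ended the call of B2m or Hprt1. The call of Actb was lost without S rat 1, R rat 3, WKY rat 1, WKY rat 3, SHR rat 1 or SHR rat 3 (limma, adjusted p up to 0.0637), and Gusb was called also without WKY rat 3 (-1.17). With normexp the value of Gusb was -0.43 and that of Hprt1 was -0.89, still called (limma, adjusted p = 0.0293), and quantile normalization moved Actb to -1.37 (adjusted p = 0.00608). The part of the slide in these differences was not tested beyond these fits.

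The 4 genes varied to very different degrees over the 12 arrays. The SD of the level was 0.561 for Actb, 0.859 for Gusb, 1.39 for B2m and 1.69 for Hprt1, in log2 units. From the lowest to the highest array Actb spanned 3.08-fold, Gusb 7.61-fold and B2m 13.3-fold. Hprt1 spanned 17.3-fold over the 10 arrays where it was above background, with an SD of 1.59 there, and was dimmer still on S rats 1 and 3. The median SD of the 12438 circRNA probes tested was 0.526, and that of the 31 other named mRNA probes was 1.101. A smaller SD than that of Actb was found in 54.9% of the circRNA probes, and the share was 81.9% for Gusb, 96.3% for B2m and 98.6% for Hprt1. The percentile is taken over the circRNA probes themselves, so the scaling removes variation that they share. No such share is given for the unscaled signal. The unscaled signal gave SDs of 0.810 for Actb, 0.724 for Gusb, 1.43 for B2m and 1.73 for Hprt1, so Gusb came before Actb when no scaling was applied. Normexp gave 0.548 for Actb, 0.542 for Gusb, 1.34 for B2m and 0.697 for Hprt1, so the rank of Hprt1 as the most variable of the 4 rests on how its dim signal was background-corrected.

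The spread among the SHR and WKY arrays was wider than among the S and R arrays for Gusb, B2m and Hprt1, with or without SHR rat 2, and for Actb only with it. These differences in spread were not tested. All S and R arrays shared slide 1, while the SHR and WKY arrays were split over the 2 slides. Slide and strain therefore cannot be told apart in this spread. The pooled SD within strains was 0.385 for Actb, 0.818 for Gusb, 0.881 for B2m and 1.06 for Hprt1. The SD of Actb was 0.338 over the 6 S and R arrays and 0.429 over the 6 SHR and WKY arrays, and that of Gusb 0.414 over S and R and 0.956 over SHR and WKY. The SD of B2m was 0.337 over S and R and 1.17 over SHR and WKY, and that of Hprt1 0.567 over S and R and 1.35 over SHR and WKY. Without SHR rat 2 the SD over the other 5 SHR and WKY arrays was 0.176 for Actb, 0.937 for Gusb, 0.443 for B2m and 0.691 for Hprt1. The spots of 1 probe on 1 array differed less than the pooled SD of that gene within strains. The median spot SD over arrays was 0.038 for Actb, 0.241 for Gusb, 0.051 for B2m and 0.149 for Hprt1, and each level is the mean of 7 to 10 spots. The highest spot SD was 0.472 for Gusb, on R rat 1, and 0.598 for Hprt1, on S rat 3. These exceeded the SD between the rats of those strains, 0.15 for Gusb in R and 0.42 for Hprt1 in S.

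**Figure D3:**
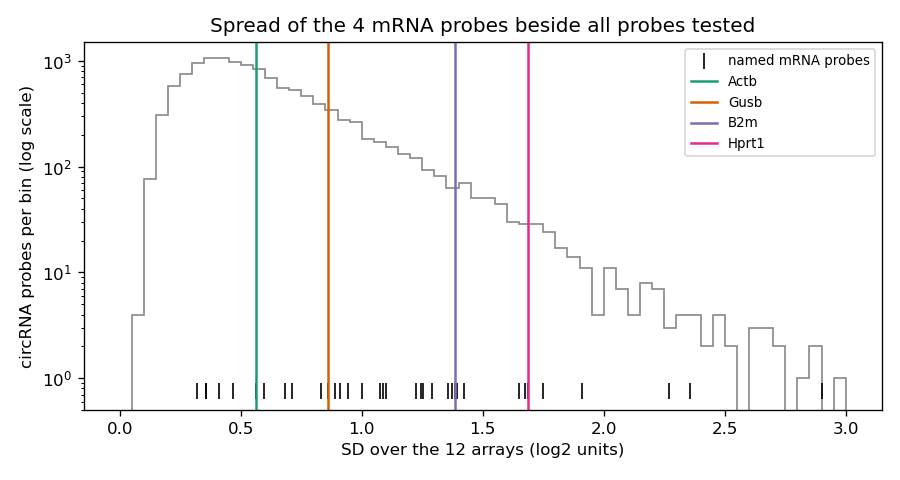
Spread over the 12 arrays (x axis, SD in log2 units) of the circRNA probes tested (grey outline, number of probes per bin on a log scale), the 35 named mRNA probes (ticks) and the 4 genes (lines). Actb at 0.561 lies close to the circRNA median of 0.526, and B2m at 1.39 and Hprt1 at 1.69 lie in the upper tail.

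A ratio of 2 probes on the same array is untouched by any scaling that subtracts 1 value per array, though not by quantile normalization. Its change over arrays was smallest for Hprt1 over B2m, with an SD of 0.426 over the 12 arrays. The SD of the log2 ratio was 0.721 for Gusb over Actb, 0.897 for B2m over Actb, 1.00 for B2m over Gusb, 1.24 for Hprt1 over Actb and 1.25 for Hprt1 over Gusb. Hprt1 and B2m, which had the largest spreads singly, thus moved together more closely than any other pair of the 4 with this background correction. With normexp the SD of their log2 ratio was 0.893, and the smallest was 0.392 for Hprt1 over Gusb. Within the 6 SHR and WKY arrays the levels of Hprt1 and B2m correlated with Pearson's r = 0.989 (exact permutation p = 0.00278, adjusted over 12 relations p = 0.0333) and Spearman's rho = 0.943 (exact p = 0.0167, adjusted p = 0.200). Unlike the ratio, these levels share the subtracted percentile of their array, which by itself can raise r. The permutation does not allow for that. Without SHR rat 2 and WKY rat 1, the 2 arrays farthest from the median, r was 0.945. Within the 6 S and R arrays r was 0.622 and rho 0.657 (exact permutation p = 0.164 and 0.175, adjusted p = 0.328 and 0.510). None of the other 10 relations passed the adjustment.

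Several ratios of the genes differed between the Dahl strains and SHR and WKY, while others did not pass. Each of these calls was lost without some single rats. No ratio was tested with the slide as a block, so the permutation over all arrays cannot tell strain from slide. B2m over Actb was 0.35, 0.61 and 0.22 in S, 0.54, 0.42 and 0.76 in R, 2.14, 0.38 and 2.30 in SHR, and 1.29, 2.53 and 2.24 in WKY, for rats 1, 2 and 3 on the log2 scale. All S and R arrays and SHR rat 2 lay at 0.76 or below and the other 5 arrays at 1.29 or above. The mean was 0.48 ± 0.19 over S and R and 1.81 ± 0.82 over SHR and WKY (SD, n = 6 each). The difference of -1.33 had an exact two-sided permutation p of 0.0108, with a Benjamini-Hochberg adjusted value over the 6 ratios of 0.0303. The smallest p that the 924 splits allow is 0.00216. The difference without SHR rat 2 was -1.62 (exact permutation, adjusted p = 0.00433). As this rat was the only SHR or WKY array overlapping S and R, leaving it out fixes the exact p at its smallest value. That p therefore adds no support. Without S rat 1, S rat 3 or R rat 2 the adjusted value was above 0.05, up to 0.0584.

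Hprt1 over Actb was -6.45, -6.23 and -7.02 in S, -5.79, -6.69 and -5.34 in R, -3.83, -6.09 and -4.01 in SHR, and -5.29, -3.42 and -4.05 in WKY. The difference between S and R and SHR and WKY was -1.80 (exact permutation p = 0.00866, adjusted p = 0.0303), with SHR rat 2 again among the S and R arrays. The difference was -1.67 for Hprt1 over Gusb (exact permutation p = 0.0152, adjusted p = 0.0303) and -1.19 for B2m over Gusb (exact p = 0.0303, adjusted p = 0.0455). Hprt1 over B2m differed by -0.47 (exact p = 0.0476, adjusted p = 0.0571) and Gusb over Actb by -0.13 (exact p = 0.755, adjusted p = 0.755), so neither passed. Leaving out SHR rat 2 gave differences of -2.13 for Hprt1 over Actb, -1.97 for Hprt1 over Gusb, -1.46 for B2m over Gusb, -0.51 for Hprt1 over B2m and -0.16 for Gusb over Actb, and the first 3 passed (exact permutation, adjusted p up to 0.0162). For Hprt1 over Actb and Hprt1 over Gusb it was again the only overlapping array, so their exact p without it is the smallest possible and adds no support. The call of Hprt1 over Actb was lost without S rat 1, S rat 3 or R rat 2, that of Hprt1 over Gusb without any of 7 rats (adjusted p up to 0.0606), and that of B2m over Gusb without any of 8 (up to 0.0909). For Gusb over Actb the S and R arrays ranged from -5.09 to -3.49, and the SHR and WKY arrays from -5.30 to -3.11. Normexp was run with an offset, and the part of that offset in the ratios of the dim Hprt1 and Gusb was not tested. Under normexp Hprt1 over Actb differed by -0.13 (exact permutation p = 0.736 after adjustment), Hprt1 over Gusb by -0.46, and Hprt1 over B2m turned to 1.18 and Gusb over Actb to 0.33. Quantile normalization turned the same ratios to 0.49 for Hprt1 over B2m and 0.51 for Gusb over Actb. Within slide 1, where the smallest exact p of 6 S and R arrays against 2 WKY arrays is 0.0357, the differences were -1.42 for B2m over Actb (exact p = 0.0357), -1.90 for Hprt1 over Actb (exact p = 0.0357), -1.67 for Hprt1 over Gusb (exact p = 0.0714), -1.20 for B2m over Gusb (exact p = 0.107), -0.47 for Hprt1 over B2m (exact p = 0.25) and -0.23 for Gusb over Actb (exact p = 0.75).

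**Figure D4:**
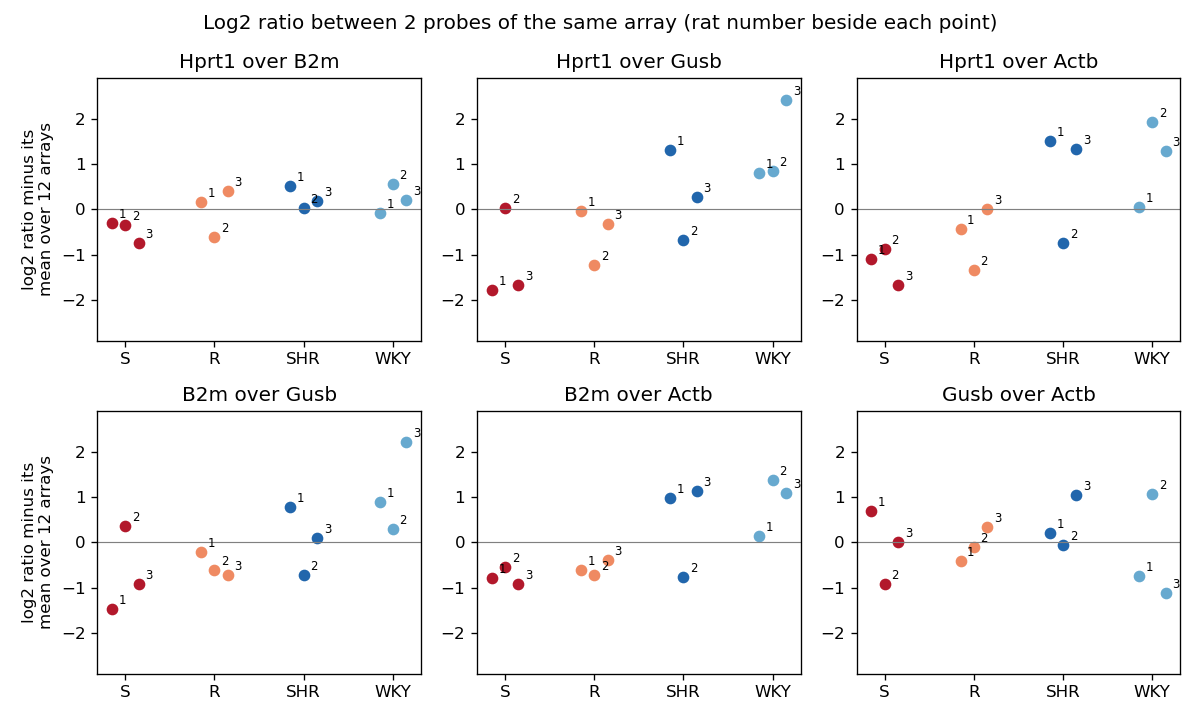
Log2 ratio of each pair of the 4 genes on the same array, minus its mean over the 12 arrays (y axis), by strain, with 1 numbered point per rat. Hprt1 over B2m stays within a range of 1.30, and in B2m over Actb the S and R arrays and SHR rat 2 lie below the other 5.

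Set against the other mRNA probes of the array, B2m and Hprt1 were lower in the Dahl strains, and no difference was detected for Actb and Gusb. When the median of the 31 other named mRNA probes of the array was subtracted in place of the circRNA percentile, the SD over the 12 arrays was 0.289 for Actb, 0.618 for Gusb, 0.849 for B2m and 1.15 for Hprt1. On that scale Actb averaged 4.06 over S and R and 4.01 over SHR and WKY, a difference of 0.05 (exact permutation p = 0.777, adjusted over the 4 genes p = 0.840). Gusb differed by -0.08 (exact p = 0.840, adjusted p = 0.840). B2m averaged 4.54 over S and R and 5.82 over SHR and WKY, a difference of -1.28 (exact permutation p = 0.0108, adjusted p = 0.0216). Hprt1 averaged -2.19 over S and R and -0.44 over SHR and WKY, a difference of -1.75 (exact permutation p = 0.00866, adjusted p = 0.0216). The 31 other probes were not tested on this scale, so no background share stands beside the calls of B2m and Hprt1. The 2 falls thus cannot be read as particular to these genes. This scale was chosen after seeing the data, and no value on it is given with the slide as a block or with normexp. On the percentile scale, neither B2m nor Hprt1 was called with the slide as a block (limma, adjusted p = 0.182 for each). With SHR rat 2 left out, the difference against the other mRNA probes was 0.06 for Actb, -0.10 for Gusb, -1.55 for B2m and -2.07 for Hprt1 (exact permutation, adjusted p = 0.833, 0.833, 0.00433 and 0.00433). For B2m and Hprt1 this rat was the only overlapping array, so their exact p without it is the smallest possible and adds no support.

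Of a fixed list of 36 further genes drawn up as references, not all of them in common use, 6 had a named probe, 7 probes in all. They were Hsp90ab1, Ldha (2 probes), Pgk1, Rpl13a, Rplp1 and Sdha. The 2 Ldha probes differed in size, at -1.40 and -3.49 in S and R vs SHR and WKY, with SDs over the arrays of 0.942 and 2.35. Each of the 4 genes has 1 probe, so such a difference between probes could not be seen for them. In S and R vs SHR and WKY, 5 of these 7 probes fell, 1 rose and 1 did not pass, with a median log2 fold change of -1.996 beside -1.54 for the 4 genes and -1.50 for all 35 probes, of which 62.9% fell. The most negative was Rplp1, which encodes a ribosomal stalk protein and fell by 4.46 (limma, Benjamini-Hochberg adjusted p = 0.00221). The most positive was Hsp90ab1, a constitutive chaperone, at 0.78 (adjusted p = 0.0176). In S vs R and in SHR vs WKY none of the 7 was called, while 3 fell in S vs SHR, beside 40.0% of all 35 probes, and 5 fell in R vs WKY, beside 42.9%. With the slide as a block none of the 35 probes was called in any of these comparisons. When each of the 11 probes of the list was set against the other 10, the mean SD of the log2 ratios was 0.940 for B2m, 1.01 for Hprt1, 1.21 for Gusb and 1.22 for Actb. The lowest was Rpl13a, another ribosomal protein gene, at 0.919, and the highest was Hsp90ab1 at 1.93. By this measure, which asks how a probe moves with the other reference genes, the order of the 4 differed from that by their own SD.

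For each of the 4 genes, the other named probes with the most similar pattern were those whose log2 ratio to it had the smallest SD over the 12 arrays. For Actb these were Ndfip1 (SD 0.446) and Enpp1 (0.501). For Gusb they were Map2 (0.516) and, of the 2 probes of Ldha, that with the smaller fall (0.550). For B2m they were Ndfip2 (0.302) and Cyp2e1 (0.316), a cytochrome P450 of proximal tubule and liver. For Hprt1 they were Pgk1 (0.418), a glycolytic enzyme, and Rpl13a (0.519). Cyp2e1, the only tubule marker measured, ranged from -1.51 to -0.72 in S and R and from -1.90 to 1.80 in SHR and WKY and fell by 1.87 in S and R vs SHR and WKY (limma, Benjamini-Hochberg adjusted p = 0.00936). Of the leukocyte markers sought, Nlrp3 ranged from -4.12 to -3.41 in S and R and from -4.66 to -3.52 in SHR and WKY, and Ptk2b from -1.41 to 1.80 in S and R and from -3.48 to -1.24 in SHR and WKY. In the same fit Ptk2b rose by 2.77 (limma, adjusted p = 0.00119) and Nlrp3 was at 0.23 (adjusted p = 0.475). The part of these cell types in the level of the 4 genes was not tested.

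The number of circRNAs called between the strains differed with the reference used. Subtracting a gene in place of the circRNA percentile adds the gene's own difference, with its sign turned, to every circRNA. In S and R vs SHR and WKY the median circRNA log2 fold change was 0.00 with the percentile, and it was 0.81 with Actb, 0.94 with Gusb, 2.14 with B2m and 2.61 with Hprt1. With the percentile, limma called 37.0% of the 12438 circRNA probes, 2382 as higher and 2226 as lower in the Dahl strains. Actb as the scale called 54.3%, 6417 as higher and 342 as lower. Gusb called 28.2%, 3430 as higher and 76 as lower. With B2m the share was 88.5%, 11003 as higher and 10 as lower, and with Hprt1 it was 93.4%, 11615 as higher and 3 as lower. The mean of the 4 genes, the usual form of a multi-gene reference, called 80.5%, 9983 as higher and 32 as lower.

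Leaving out 1 rat at a time moved the count of called circRNAs to between 2544 and 6370 with the percentile, with 2684 without R rat 3, 2544 without SHR rat 1 and 2656 without SHR rat 3. With Gusb it ranged from 1511 to 6300: it was 2248 without R rat 1, 2003 without R rat 3, 1536 without SHR rat 1, 6300 without SHR rat 2, 1511 without SHR rat 3 and 1967 without WKY rat 2. It ranged from 5027 to 7882 with Actb, 10179 to 12044 with B2m and 10889 to 12239 with Hprt1, in each case highest without SHR rat 2. With the slide as a block the calls were 0 with the percentile, 30 with Actb, 2062 with Gusb, 1062 with B2m, 1138 with Hprt1 and 1546 with the mean of the 4. In S vs R the 6 scales called at most 12 circRNAs (0.0965% with the percentile), and leaving out 1 rat gave up to 3525, the highest being without S rat 2 on the percentile scale. In SHR vs WKY they called at most 12 (0.0965% with the percentile), with up to 25 after leaving out 1 rat.

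**Figure D5:**
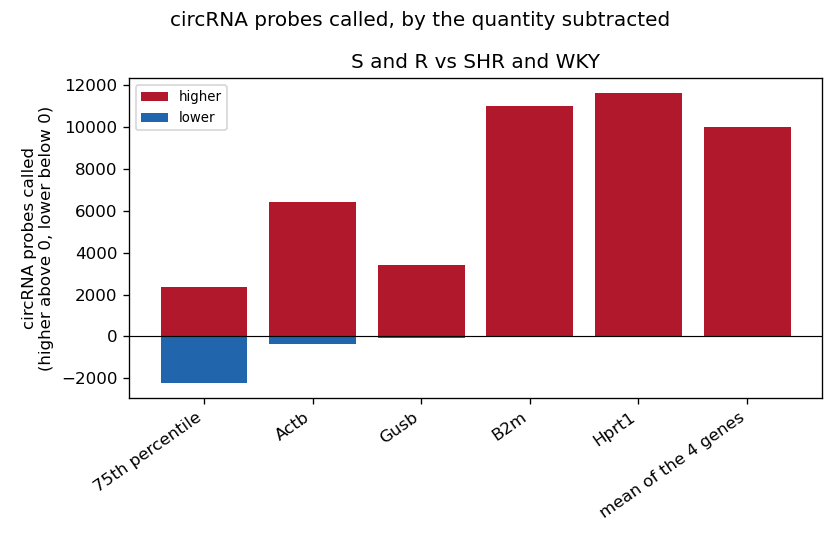
Number of the 12438 circRNA probes called (y axis, higher in S and R above 0 and lower below 0; limma, Benjamini-Hochberg) when the 75th percentile, 1 of the 4 genes or their mean was subtracted from each array (x axis). The 2382 higher and 2226 lower calls with the percentile become 11615 higher and 3 lower with Hprt1.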

How the data were processed

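Kidney RNA of 12 rats was measured on 1-colour arrays. Per the file headers, spot intensity was extracted with Agilent Feature Extraction 11.0.1.1, which subtracts background and detrends within an array but does not scale between arrays. Limma is named too, per the submitters' processing notes. Other columns used, per the file headers, are flags for spots well above background, saturated or outlying. The deposited table of normalized values holds circRNA probes only and was not used.

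Spots with an outlier flag were left out, log2 intensities of a probe's spots were averaged, and each array's 75th percentile over circRNA probes was subtracted. Gene symbols came from RefSeq's table for GRCr8, matched by accession without its version: 39 of 62 matched (38 genes). Probes above background, by more than 50% of spots on all arrays of a strain, were fitted (35 probes) with 1 mean per strain over all 12 arrays with lmFit and eBayes (R 4.3.3, limma 3.58.1), with Benjamini-Hochberg adjustment within each contrast and a threshold of 0.05. The 12438 circRNA probes were fitted apart. Differences of ratios used exact two-sided permutation over arrays, 6 against 6. Simulated data with independent noise and large shifts in S alone were used only to check the code of the fits. They held no slide effect.

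The 4 genes, the lists and the tests were chosen with earlier results of these data known. The 4 genes were named with all their values. The 2 probes most like each gene were named, as were the most positive and most negative of the other reference genes. Alternatives were normexp (offset 50), median scaling, quantile normalization, the percentile over all probes, no scaling, the median of spots, flagged spots kept, no filter or a filter on all 12 arrays, mRNA and circRNA probes together, all probes with an accession, a block for replicate number, a block for slide, fits within a slide, fits of only the strains compared, array weights, robust variance with a trend on intensity, an unmoderated test and leaving out each rat. Chosen after seeing the data were keeping flagged spots, scaling circRNAs to the genes, the level against other mRNA probes, its value and the spread without SHR rat 2, and the range of Hprt1 over arrays above background. The number of arrays limits the precision.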

Additional observations from a re-analysis of the deposited data

Results flagged for a closer look

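Among the 6 S and R arrays, the B2m level of S rat 1 was the lowest at 1.82, against 2.46 for the nearest and 2.74 for the highest. The gap to the nearest array was 0.695 of the whole range, above Dixon's 95% critical value for 6 values. The same array had the lowest 75th percentile of all 12, 6.22. Among the 6 SHR and WKY arrays, the B2m level of SHR rat 2 was the lowest at 2.37, against 4.37 for the nearest and 5.55 for the highest, a gap of 0.629 of the range. Hprt1 on SHR rat 2 had a gap of 0.509 and Actb a gap of 0.610, both below the critical value. These were the 2 marked values among 20 sets of 6 arrays, where chance marks about 1 in 20.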

How the results depend on the processing

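For 34 tested results, 911 values were recomputed under the alternatives and with each rat left out, and 777 kept their side of the threshold and, where there is one, their direction. For 10 SDs and 7 counts of called probes, 353 of 391 values stayed within the spread within strains (SDs) or within 1.5 times (counts). Where no cause is stated, it was not tested. Fewer genes and arrays enter some fits, by their construction.

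The replicate block used the rat numbers, but these do not pair the rats: over 18 pairs of same-numbered rats the correlation of deviations ran from -0.54 to 0.52 and exceeded 0.1 in 4. With the replicate block Actb in S and R vs SHR and WKY was -0.81 (limma adjusted p = 0.0561), B2m in S vs SHR -1.83 (0.0731), and 12 probes differed among strains in place of 20.

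With the slide as a block, S and R vs SHR and WKY was -0.85 for Actb, -1.96 for B2m and -2.45 for Hprt1, R vs WKY -2.36 for B2m and -2.61 for Hprt1, and S vs SHR -1.55 for B2m and -2.30 for Hprt1, none called. The adjusted p for any strain difference was 0.0901 for both, and the 4 counts of called probes (15, 16, 20 and 25) became 0. Within slide 1 Gusb was called at -1.28.

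Normexp gave -0.56 for Hprt1 and -1.80 for B2m in S vs SHR (neither called), -0.91 for Actb in R vs WKY (called), 0.137 as the adjusted p of Hprt1 for any strain, 0.32 for Hprt1 and 0.31 for Gusb in S vs R, and 0.23 for Gusb in the interaction. Its differences were 0.33 for Gusb over Actb, -0.13 for Hprt1 over Actb and 1.18 for Hprt1 over B2m, whose SD was 0.893. It called 1 probe in S vs SHR and 5 for any strain. Quantile normalization gave -1.54 for Actb in R vs WKY (called), 0.0349 as its adjusted p for any strain, 0.51 for Gusb over Actb and 0.49 for Hprt1 over B2m. Median scaling put B2m in S vs SHR at -1.68 (not called). Without scaling Actb was -0.73 in S and R vs SHR and WKY (not called), and the interactions were -0.25 for Actb, -0.012 for B2m and -0.49 for Hprt1. The median of spots gave -0.54 for Hprt1 over B2m (called), and keeping marked spots -1.21 for B2m over Gusb (not called).

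Array weights called Actb in R vs WKY (-0.93) and for any strain (0.0375), and Gusb in S vs SHR (-1.43) and S and R vs SHR and WKY (-1.05). They turned Gusb in S vs R to 0.088 and the interactions to -0.0071 for B2m and -0.45 for Hprt1, and called 25 probes in R vs WKY, 27 in S vs SHR, 3 in S vs R and 1 in the interaction. The filter on all 12 arrays left Actb in R vs WKY at -1.01 (called) and B2m in S vs SHR at -1.83 (not called), with 15, 4 and 10 probes called in S and R vs SHR and WKY, S vs SHR and for any strain. The fit with circRNA probes called 2 mRNA probes in R vs WKY and lost B2m (-2.45) and Hprt1 (-2.69) there and B2m (-1.83) in S vs SHR. All probes with an accession gave 33, 39, 23 and 32 calls in R vs WKY, S and R vs SHR and WKY, S vs SHR and for any strain, and called Actb in R vs WKY (-1.01). Fits of only the compared strains and unmoderated tests both called Actb in R vs WKY (-1.01) and lost B2m (-1.83) and Hprt1 (-2.54) in S vs SHR, where they called 3 and 0 probes.

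Leaving out each rat gave these ranges. In S and R vs SHR and WKY, Actb ran from -0.96 to -0.68, Gusb from -1.21 to -0.61, B2m over Actb from -1.62 to -1.19, B2m over Gusb from -1.46 to -0.87, Hprt1 over Actb from -2.13 to -1.60, Hprt1 over Gusb from -1.97 to -1.35, Hprt1 over B2m from -0.60 to -0.37 and Gusb over Actb from -0.37 to 0.067. In S vs SHR, Actb ran from -0.91 to -0.36, Gusb from -1.61 to -0.72, B2m from -2.73 to -1.30, Hprt1 from -3.56 to -1.88 and the called probes from 1 to 27. In R vs WKY, Actb ran from -1.09 to -0.84, B2m from -2.79 to -2.20, Hprt1 from -3.18 to -2.27 and the called probes from 0 to 23. In S vs R, Actb ran from -0.25 to 0.19, B2m from -0.40 to 0.032, Gusb from -0.30 to 0.29 and the called probes from 0 to 1. In SHR vs WKY, B2m ran from -1.39 to 0.043, Hprt1 from -1.50 to 0.18 and Gusb from -0.23 to 0.88. The interaction ran from -0.28 to 1.15 for B2m, -0.95 to 0.16 for Gusb and -0.87 to 0.81 for Hprt1. The adjusted p for any strain ran from 0.0216 to 0.235 for Actb, 8.7e-05 to 0.0639 for B2m and 8.7e-05 to 0.0547 for Hprt1, with 4 to 26 probes called. Hprt1 is limited by its dim signal on S rats 1 and 3.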
